A study of Mus musculus with 123 samples.

Results

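Loss of the transcription factor Oct4 (gene Pou5f1) was followed at its latest sampled stage, the late inner cell mass (ICM) of the mouse blastocyst at embryonic day 4.5 (E4.5). The embryos are the 16 late ICMs of the Oct4 line whose titles give the genotype KO or Ctrl, 8 of each, out of 96 KO and Ctrl and 27 other single-embryo libraries in the series. KO embryos were maternal-zygotic mutants. Their mothers were Pou5f1 flox/flox with Zp3-Cre, a recombinase expressed in the growing oocyte that deletes the floxed gene before fertilization, and their fathers passed on a mutant Pou5f1 allele marked by a linked fluorescent mKO2 reporter. Ctrl embryos came from the same matings, also lacked the maternal gene, and kept an intact paternal allele, so the comparison is between embryos with no and with a single working copy. The strain is given as B6C3F1. Embryos of both genotypes had been cultured with the MEK inhibitor PD0325901 at 1 µM, which blocks the FGF and ERK signal that promotes primitive endoderm (PE), and the trophectoderm (TE) had been lysed by immunosurgery. A further 8 late ICMs from mothers with Pou5f1 intact (maternal wild type, MWT) served as another control. Their titles say late ICM while their source names give an earlier stage, and the titles were used. Comparison groups were the 8 KO and 8 Ctrl early ICMs of the Oct4 line, at E3.75, and Ctrl early ICMs and KO and Ctrl late ICMs of a Sox2 line, 8 of each. The Sox2 line was bred the same way, with Sox2 flox/flox; Zp3-Cre mothers and fathers carrying a mutant Sox2 allele linked to EGFP, so that its KO embryos were maternal-zygotic and its Ctrl embryos lacked the maternal gene only. All of these embryos had been given the MEK inhibitor too. The labels do not say which embryos shared a litter, so p-values measure the spread between embryos only.

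Oct4 is a POU domain transcription factor that binds the octamer motif, often side by side with Sox2, at enhancers of the genes that keep ICM and embryonic stem cells pluripotent. The blastocyst holds an outer TE, which forms the placenta and depends on factors such as Cdx2, Gata3 and Eomes, and an ICM that segregates into pluripotent epiblast and PE. Epiblast cells secrete Fgf4, which PE precursors need, and embryos without Oct4 are known to form blastocysts whose inner cells cannot maintain pluripotency.

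The Pou5f1 mRNA (ENSMUSG00000024406, mm10 chromosome 17, 35506018 to 35510772, plus strand) was measured first in each embryo. Levels are given as counts of unique molecular identifiers (UMIs, tags that let each captured molecule be counted once) relative to library size as CPM, with libraries scaled by TMM. The 8 Ctrl embryos held 24.1 to 63.1 CPM (median 42.6), and 7 of 8 KO embryos held no Pou5f1 UMI, the exception being KO 2-2 with 1 UMI. The sums were 236 UMIs in Ctrl and 1 in KO, so KO embryos retained 0.403% of the Ctrl level, with an exact Poisson 95% interval of 0.0101% to 2.26%. MWT embryos had a median of 48.5 CPM.

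Ctrl libraries held 525755 to 747472 UMIs and KO libraries 640909 to 859114, with 12290 to 13195 genes detected per embryo, so 1 CPM stands for about 1 UMI or less. Mitochondrial transcripts took a median of 6.19% of UMIs in Ctrl and 4.40% in KO embryos. Embryos with at least 10 UMIs of the single-copy Y-linked genes Ddx3y, Eif2s3y, Uty and Kdm5d numbered 5 of 8 in Ctrl and 2 of 8 in KO, so the groups differed in sex composition. With sex as a covariate 2087 genes were called in place of 2544. Among 432 X-linked genes tested, 54 (12.5%) were called higher and 46 (10.6%) lower, against 9.16% and 8.81% of 13582 genes outside X, Y and the mitochondrial genome. The 8 defining epiblast markers chosen to check the cell type (Nanog, Sox2, Klf2, Esrrb, Gdf3, Tdgf1, Fgf4, Utf1) were all present in Ctrl embryos, with a summed level of 2486 to 3755 CPM (median 2997), against 360 to 1059 (median 649) in KO and 2237 to 4817 (median 4248) in MWT embryos. The 8 TE markers summed to 202 to 1020 CPM in Ctrl (median 615) and 1209 to 2954 in KO (median 2637), with 169 to 2207 in MWT embryos (median 567). The TE sum was carried by Krt8, Krt18 and Gata3, with 1315, 819 and 330 UMIs in Ctrl and 5349, 5160 and 2551 in KO. Eomes, Cdx2, Elf5 and Krt7 held fewer UMIs but also more in KO (122, 53, 21 and 9 against 516, 209, 109 and 99). Tfap2c had 474 in Ctrl and 523 in KO. All marker sums are per library total, without TMM. The 8 PE markers summed to 164 to 818 CPM in Ctrl (median 496) and 690 to 1432 in KO (median 1192), with 59.4 to 400 in MWT embryos (median 170). This sum was carried by Gata6 and Dab2, with 938 and 807 UMIs in Ctrl and 2441 and 4250 in KO, while Sox17, Gata4, Sox7, Foxa2 and Pdgfra had fewer UMIs in KO (462, 97, 26, 12 and 96 against 4, 7, 1, 1 and 18) and Cubn had 45 and 42. Of the 7 markers of cumulus and maternal somatic cells 6 are in the table, with sums of 5.57 to 96.4 CPM in Ctrl and 0 to 74.9 in KO, and Ptgs2 and Amh were at 0 in both groups. Each library is a whole ICM, so fewer cells of a type and less RNA per cell cannot be told apart, here or in any result that follows.

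The transcriptome of the late ICM differed widely between genotypes. Of 14053 genes tested, 1300 (9.25%) were called higher and 1244 (8.85%) lower in KO embryos, 18.1% together, where a call needed edgeR's quasi-likelihood test to pass at an adjusted p under 0.05 and the log2 fold change to reach 1 in size. The median log2 fold change over all genes tested was -0.01. Without any model, every KO embryo lay below every Ctrl embryo for 400 genes (2.85%) and above every Ctrl embryo for 395 (2.81%), numbers that became 471 and 315 when scaled by library totals alone. The same scaling moved the split of calls to 1108 higher and 1430 lower and shifted the median of all genes to -0.10. Lists of genes are described below by the members called, beside these shares of all genes. The members of a list were counted where they passed the detection filter.

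Most of the pluripotency transcription factors fell. Of 22 listed genes 20 were tested, 13 were called lower and 0 higher, with a median log2 fold change of -1.45. Sox2, the partner of Oct4, stood at 133 to 473 CPM in Ctrl (median 308) and 10.4 to 220 in KO embryos (median 87.9). The ranges overlap, while the KO median lies below the lowest Ctrl embryo (log2 fold change -1.62 ± 0.27 SE, adjusted p = 1.03e-06). Sox2 lies inside the noncoding gene Sox2ot on the same strand, so some reads may belong to that transcript. Nanog, a homeodomain factor of the epiblast, ran from 701 to 1430 CPM in Ctrl (median 946) and from 225 to 685 in KO (median 440). Every KO embryo was below every Ctrl embryo, with a log2 fold change of -1.19 ± 0.24 (adjusted p = 2.47e-05).

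Several other pluripotency factors fell too. Esrrb, an orphan nuclear receptor, had 83.4 to 139 CPM in Ctrl (median 106) and 0 to 25.9 in KO embryos (median 3.94), without overlap (-3.61 ± 0.30, adjusted p = 2.33e-18). Klf2 fell from a median of 447 to 80.0 CPM (-2.62 ± 0.25, adjusted p = 8.33e-15) and Klf4 from 523 to 70.5 CPM (-2.60 ± 0.26, adjusted p = 2.07e-14). Both are Krüppel-like factors, and in both the groups were separate. Prdm14, a regulator that restrains FGF signalling and DNA methylation, fell by 3.88 on the log2 scale (medians 48.1 and 2.80 CPM), and the chromatin-bound factor Utf1 by 4.27 (277 to 539 CPM in Ctrl, 7.57 to 29.4 in KO, adjusted p = 1.86e-27). The ETS factor Etv5 fell by 4.22, the forkhead factor Foxd3 by 4.96, the zinc finger factor Zscan10 by 5.87 and Zfp296 by 1.28. The fitted value of a gene with no UMI in a group depends on the prior count and is no bound. With such genes at their bound the medians of the 4 lists that hold one (pluripotency factors, germ layer, imprinted and mitochondrial genes) were the same to 2 decimals.

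Other pluripotency factors changed less. Tfcp2l1, a LIF-responsive factor, had medians of 361 CPM in Ctrl and 209 in KO embryos (-0.70 ± 0.14, adjusted p = 2.91e-05, under the fold minimum), and Tbx3 176 and 117 (-0.51 ± 0.18, adjusted p = 0.0237). Sall4, Mybl2, Sall1, Nr5a2 and Sox15 were not called, at -0.15, -0.51, -0.45, 0.20 and 0.57.

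**Figure D1:**
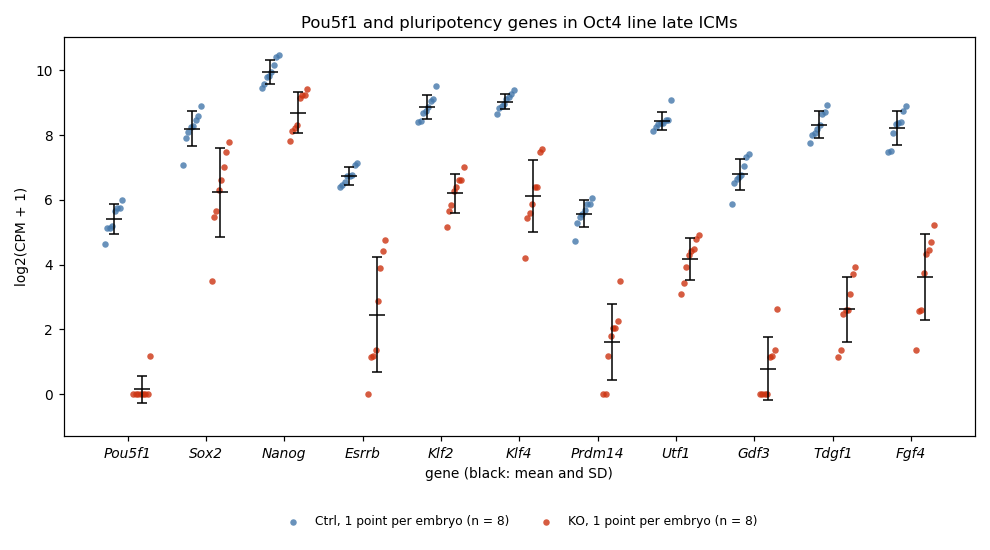
Levels of Pou5f1 and 10 pluripotency genes in each late ICM of the Oct4 line, as log2(CPM + 1), with 1 point per embryo and the mean and SD of each group in black. Pou5f1 is at 0 in 7 of 8 KO embryos, and the KO embryos lie below all Ctrl embryos for each gene shown except Sox2, where the ranges overlap.

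The other pluripotency markers include secreted, surface and chromatin proteins. Of 21 other pluripotency markers 20 were tested, with 11 called lower, 1 higher and a median of -1.01. Gdf3, a TGF-beta family ligand (ENSMUSG00000030117, chromosome 6, 122605403 to 122610087, minus strand), had 57.8 to 169 CPM in Ctrl (median 106) and 0 to 5.19 in KO (median 0.616), which is 623 UMIs against 6 (-6.59 ± 0.46, adjusted p = 4.69e-22). Tdgf1, the Nodal co-receptor also known as Cripto, ran from 213 to 491 CPM in Ctrl and from 1.23 to 14.1 in KO embryos (-5.71 ± 0.40, adjusted p = 6.29e-22). Fgf4, the epiblast ligand that PE precursors respond to, ran from 178 to 474 CPM in Ctrl and from 1.57 to 36.6 in KO (-4.35 ± 0.41, adjusted p = 1.71e-15). All 3 ligand and co-receptor genes were separate between the groups. The dioxygenase Tet1, which oxidizes methylated cytosine, fell by 2.70, the RNA-binding ubiquitin ligase Trim71 by 1.63 and the junctional adhesion molecule Jam2 by 1.59, again without overlap. Spp1, the secreted phosphoprotein osteopontin, ran from 425 to 2551 CPM in Ctrl (median 1727) and from 39.4 to 564 in KO embryos (median 223), with a fold change of -2.59 ± 0.62 (adjusted p = 0.000487). Dppa5a was among the most abundant listed mRNAs in both groups (medians 4274 and 2782 CPM, -0.50 ± 0.17, adjusted p = 0.0148). Dppa4, Lin28a and L1td1 were not called, at -0.27, 0.03 and 0.14. Mycn was the listed gene called higher, with 22.5 to 110 CPM in Ctrl and 29.6 to 283 in KO embryos (1.07 ± 0.40, adjusted p = 0.0297).

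LIF acts through the receptor chains Lifr and gp130 (Il6st), the kinase Jak1 and the transcription factor Stat3, and feeds naive pluripotency. Of 13 tested genes of this pathway 5 were called lower and 1 higher. Both receptor chains fell. Lifr ran from 38.7 to 146 CPM in Ctrl and from 0 to 46.7 in KO embryos (-2.94 ± 0.53, adjusted p = 5.11e-06), and Il6st from 22.0 to 55.5 and from 0 to 10.1 (-3.88 ± 0.44, adjusted p = 6.43e-12). Socs2, Bcl3 and Socs3, which STAT3 is known to induce, also fell, at -3.51, -3.86 and -2.04. The ligand went the other way. Lif had 1.42 to 8.54 CPM in Ctrl and 3.74 to 62.3 in KO (2.34 ± 0.45, adjusted p = 1.71e-05), a call not made against MWT embryos (0.75) nor in the second label set alone. The signal transducers themselves were not called, with Jak1 at 0.46 ± 0.20 and Stat3 at 0.77 ± 0.16 (medians 143 and 261 CPM).

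In the FGF and MAPK pathway, 5 of 24 tested genes were called in each direction, under a MEK inhibitor in both groups. The ligands Fgf4 and Fgf10 fell, Fgf10 from 30.5 to 59.4 CPM in Ctrl to 0 to 15.6 in KO embryos (-2.56 ± 0.48, adjusted p = 9.85e-06). The receptor Fgfr2, which is characteristic of TE and PE, rose from 21.2 to 87.9 CPM (median 60.2) to 93.0 to 204 (median 153), without overlap (1.34 ± 0.25, adjusted p = 7.78e-06). The span given for Fgfr2 covers many other genes, some on the same strand, so some reads may belong to those. Feedback phosphatases of the pathway rose, Dusp4 by 2.85 ± 0.58 (adjusted p = 4.78e-05) and Dusp6 by 1.50 ± 0.39 (adjusted p = 0.00143), while the immediate early gene Egr1 fell by 1.61 (adjusted p = 6.36e-05). Against MWT embryos Egr1 was not called (0.28). The listed Sprouty genes, other feedback regulators, went both ways. Spry1 was called higher at 1.33 and Spry4 lower at -2.76, while Spry2 was under the fold minimum at -0.78. The pathway kinases Map2k1, Map2k2 and Mapk3 were not called, at -0.41, 0.04 and 0.01.

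Among Nodal and BMP genes, 7 of 22 tested members were called lower and 2 higher, and the median was 0.05. The losses were in the ligands Gdf3 and Bmp4, the co-receptor Tdgf1, the protease Pcsk6 that processes Nodal, Smad1, Smad5 and the BMP target Id3. Bmp4 ran from 7.05 to 85.4 CPM in Ctrl and from 0 to 1.26 in KO embryos. The sum of 2 UMIs in KO against 174 in Ctrl is 1.09% of the Ctrl level, with an exact Poisson interval of 0.131% to 4.00%. Id3 fell by 3.35 ± 0.32 (181 to 480 CPM in Ctrl, 16.8 to 57.4 in KO, adjusted p = 8.33e-15) and Pcsk6 by 1.68 ± 0.23 (adjusted p = 4.93e-09). Id2, another inhibitor of bHLH factors that is prominent in TE, rose from 45.3 to 627 CPM (median 288) to 369 to 1911 (median 976), with 1.67 ± 0.50 (adjusted p = 0.00574). Smad7, an inhibitor of the pathway, was called higher at 1.06. Of the later epiblast genes 8 of 14 passed the filter, with 3 called lower and 0 higher. Tcf7l1, a repressor of the Wnt pathway, fell from a median of 181 to 2.53 CPM (-5.54 ± 0.52, adjusted p = 2.96e-15). Only 5 of 14 germ layer markers passed, with 2 called lower and 1 higher, among them Gsc, which fell by 4.43, and the blood factor Gata1, which rose by 4.17 from 7 to 142 UMIs.

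Many transcription factors of the TE rose. Of 22 listed 21 were tested, 12 were called higher and 0 lower, and the median was 1.29. Gata3, a zinc finger factor that drives TE genes in parallel with Cdx2, had 14.1 to 105 CPM in Ctrl (median 63.7) and 322 to 583 in KO embryos (median 428), with the groups far apart (2.85 ± 0.35, adjusted p = 7.5e-11). Cdx2, the factor that specifies TE, had 6.19 to 13.7 CPM in Ctrl (median 10.3) and 17.7 to 88.2 in KO (median 32.7), also without overlap (1.92 ± 0.39, adjusted p = 4.43e-05). Tfap2a rose from 12.7 to 46.1 CPM to 59.7 to 386 (2.57 ± 0.48, adjusted p = 1.04e-05). Eomes, a T-box factor of trophoblast stem cells, ran from 5.64 to 88.8 CPM in Ctrl and from 35.7 to 187 in KO, an overlap made by Ctrl 2-4 alone (1.97 ± 0.34, adjusted p = 2.32e-06, and 2.62 without that embryo). Hand1, a factor of giant cells, rose by 2.66 ± 0.58 (adjusted p = 0.000132) but ranged from 2.46 to 217 CPM among KO embryos and was not called against MWT (-0.28). The epithelial factors Elf3 and Klf6 rose by 1.39 and 1.29. Tead4, which acts upstream of Cdx2, had medians of 51.3 and 99.2 CPM (0.95 ± 0.17, adjusted p = 4.87e-06, under the fold minimum), and Tead1 was not called, at -0.25.

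Among genes of the TE epithelium many rose as well, with 16 of 30 tested members called higher, 1 lower and a median of 1.20. The keratins Krt8 and Krt18, which form the intermediate filaments of TE, rose together. Krt18 ran from 18.3 to 289 CPM in Ctrl (median 172) and from 310 to 1144 in KO embryos (median 1104), separate by a narrow margin made by KO 2-7, the lowest KO embryo for both keratins (2.60 ± 0.54, adjusted p = 5.35e-05). Tight junction and desmosome genes followed, with Cldn4 at 1.63 ± 0.22 (106 to 408 CPM in Ctrl, 601 to 1098 in KO), Cldn7 at 1.98 ± 0.25, Dsp at 2.45 ± 0.35 and Pkp2 at 2.19 ± 0.31, each without overlap. The water channel Aqp9 rose by 2.65, the prostaglandin synthase Ptges by 2.26 (medians 251 and 1096 CPM) and the matrix protein Tinagl1 by 2.24. The sodium pump subunit Atp1b1, the water channel Aqp3 and E-cadherin (Cdh1), which also belong to fluid pumping and adhesion in TE, were not called, at -0.47, -0.44 and 0.39. Ezr, the apical linker ezrin, was called lower, from 134 to 524 CPM in Ctrl (median 293) to 20.3 to 106 in KO (median 38.7), with -2.51 ± 0.31 (adjusted p = 7.21e-11). Ezr overlaps Sytl3, and whether counting used the strand is not stated. Immunosurgery had removed the TE in both genotypes, and the part of remaining TE cells in these differences was not tested.

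The PE list was split. Of 28 listed genes 24 were tested, with 11 called lower, 4 higher and a median of -1.31. Fn1, fibronectin, ran from 356 to 642 CPM in Ctrl (median 473) and from 4.57 to 14 in KO embryos (median 11.3), with a gap between the groups (-5.51 ± 0.31, adjusted p = 2.34e-28). Hnf4a, a nuclear receptor of endoderm, went from 114 UMIs in Ctrl to 7 in KO (-3.98 ± 0.51), and Sparc and the laminin chain Lamc1, both basement membrane genes, fell by 1.96 and 1.92. Gata6, the earliest factor of PE, went the other way, from 92.8 to 345 CPM (median 143) to 242 to 556 (median 439), with 1.25 ± 0.26 (adjusted p = 4.74e-05). The endocytic adaptor Dab2 rose from a median of 155 to 760 CPM without overlap (2.29 ± 0.34, adjusted p = 3.06e-08) and its partner receptor Lrp2 from 26.8 to 286 CPM (3.59 ± 0.42, adjusted p = 2.19e-11). Apoa1, an apolipoprotein of visceral endoderm, rose by 2.93 ± 0.61, and by 4.38 without Ctrl 2-9.

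The later PE factors were uneven among Ctrl embryos. Sox17 stood at 394, 114 and 94.5 CPM in Ctrl 1-9, 2-9 and 1-3, at 17.6 in Ctrl 1-4 and at 1.42 to 3.58 in the other 4, and at 0 in every KO embryo but KO 2-5 with 6.28. Gata4 was present in the same 3 Ctrl embryos, at 70.0, 38.4 and 21.5 CPM, and at 0 in the other 5, while KO embryos held 0 to 7.84 CPM with 5 of 8 at 0. The calls of Sox17 (-6.57 ± 1.13, adjusted p = 2.17e-06) and Gata4 (-3.63 ± 0.96, adjusted p = 0.00178) rest on these embryos. Leaving out Ctrl 1-9 gave -5.39 and -2.78, and leaving out KO 2-5 gave -9.19 and -5.02. MWT embryos had median levels of 1.57 and 0 CPM, and neither gene was called against them (-1.18 and -0.15). Over the PE list, 10 members were called higher and 6 lower against MWT. Fn1, Hnf4a, Gata6, Dab2 and Lrp2 kept their direction and call there, at -5.68, -4.61, 1.99, 3.60 and 4.48.

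**Figure D2:**
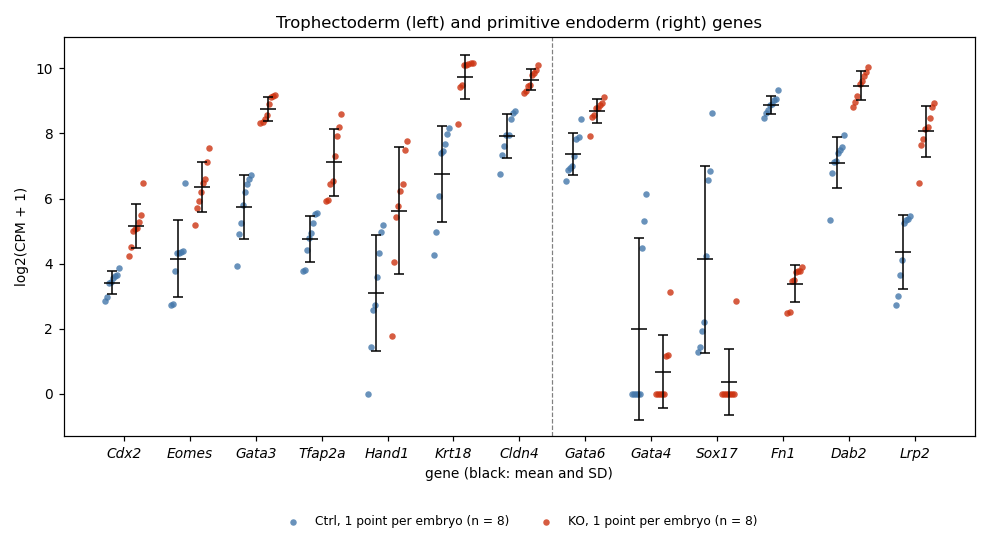
Levels of TE genes (left of the dashed line) and PE genes (right) in each late ICM of the Oct4 line, as log2(CPM + 1), with 1 point per embryo and the mean and SD in black. KO embryos lie above all Ctrl embryos for Cdx2, Gata3, Tfap2a, Krt18, Cldn4, Dab2 and Lrp2 and below them for Fn1, while Gata4 and Sox17 are carried by a few Ctrl embryos.

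The promoters of some of these genes hold the octamer itself. Of the 14053 genes tested, 10093 (71.8%) matched a promoter window in RefSeq on GRCm38.p6, the assembly also called mm10, reaching from 250 bases before to 50 bases after the start. The octamer ATGCAAAT was searched on both strands. At least 1 window held it for 1.7% of these genes, for 3.1% of genes called lower (29 of 934) and for 2.29% of genes called higher (22 of 962), beside 1.74% of all 32851 windows. A Sox core, CATTGT, was held by 9.15%, 11.6% and 10.3% of genes tested, called lower and called higher, and by 12.6% of all windows. A Tead core, GGAATG, was held by 14.3%, 13.7% and 18.9%, and by 14.7% of all windows. Among called genes whose groups did not overlap and that reached 20 CPM, the octamer was held by 2.02% of 198 lower and 2.16% of 232 higher genes, the Sox core by 10.1% and 6.9% and the Tead core by 13.6% and 17.7%. These shares are descriptions, and a match is not a binding site. Among the genes described here, Spp1 and Zfp296 fell and Cdx2 and Mab21l3 (0 to 5.12 CPM in Ctrl, 8.89 to 29.8 in KO embryos) rose. Their windows are printed from 5′ to 3′ on the strand of the gene, with the octamer or its reverse complement in capitals, to show that the same 8 bases occur in genes of either direction. Srebf2, Elf3 and Acsbg1 were among the other named genes with it, and 137 of the 176 named genes had a window.
Spp1 (chr5:104435942-104436241, plus strand): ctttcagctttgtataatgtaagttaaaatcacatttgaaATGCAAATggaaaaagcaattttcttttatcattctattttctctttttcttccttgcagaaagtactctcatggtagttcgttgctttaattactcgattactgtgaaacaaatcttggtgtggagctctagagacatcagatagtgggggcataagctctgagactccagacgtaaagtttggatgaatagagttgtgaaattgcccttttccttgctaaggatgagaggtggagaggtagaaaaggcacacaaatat
Zfp296 (chr7:19577037-19577336, plus strand): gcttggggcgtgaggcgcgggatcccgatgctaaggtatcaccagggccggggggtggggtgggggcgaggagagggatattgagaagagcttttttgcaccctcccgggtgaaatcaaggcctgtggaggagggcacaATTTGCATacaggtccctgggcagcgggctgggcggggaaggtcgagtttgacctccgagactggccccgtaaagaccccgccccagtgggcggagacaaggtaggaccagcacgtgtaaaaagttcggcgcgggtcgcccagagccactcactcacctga
Cdx2 (chr5:147307200-147307499, minus strand): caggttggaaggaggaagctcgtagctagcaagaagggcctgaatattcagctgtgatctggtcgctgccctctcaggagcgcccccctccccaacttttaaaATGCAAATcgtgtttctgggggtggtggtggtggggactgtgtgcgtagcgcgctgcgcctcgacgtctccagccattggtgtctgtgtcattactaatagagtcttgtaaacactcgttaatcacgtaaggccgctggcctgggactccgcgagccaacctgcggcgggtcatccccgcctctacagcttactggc
Mab21l3 (chr3:101836174-101836473, minus strand): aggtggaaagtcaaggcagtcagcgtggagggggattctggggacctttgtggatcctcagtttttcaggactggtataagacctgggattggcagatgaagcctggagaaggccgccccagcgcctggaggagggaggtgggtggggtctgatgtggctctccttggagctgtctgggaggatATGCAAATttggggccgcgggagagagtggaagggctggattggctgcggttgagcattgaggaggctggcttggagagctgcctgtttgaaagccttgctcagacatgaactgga
Between the end of the match and the start lie 202 bases in Spp1, 103 in Zfp296, 139 in Cdx2 and 58 in Mab21l3. The starts used for Spp1 and Mab21l3 lie inside the gene as GENCODE draws it, and Spp1 has another window, at the gene's outer start, without these 8 bases.

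In threonine and serine metabolism more genes fell than rose. Of 19 tested genes 9 were called lower and 1 higher, with a median of -0.42. Tdh, the threonine dehydrogenase on which mouse pluripotent cells depend, ran from 66.3 to 202 CPM in Ctrl (median 115) and from 1.25 to 20.4 in KO embryos (median 2.84), without overlap (-4.58 ± 0.40, adjusted p = 6.67e-17). Gcat, which converts its product to glycine, fell by 2.05. The mitochondrial folate enzymes Shmt2 and Mthfd2 fell by 2.12 and 3.31, Mthfd2 from 74.5 to 150 CPM to 1.52 to 26.2 (adjusted p = 2.06e-14), and Ahcy, which clears the by-product of methylation, by 2.06. The serine pathway moved in opposite directions. Phgdh, its first enzyme, rose from 19.3 to 51.2 CPM (median 37.2) to 72.7 to 471 (median 193), with 2.61 ± 0.29 (adjusted p = 1.5e-12). Psat1 and Psph, the following enzymes, fell by 1.61 ± 0.19 and 1.65 ± 0.25, Psat1 from 495 to 702 CPM (median 631) to 65.7 to 458 (median 162). All 3 serine genes were separate between the groups.

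In central carbon metabolism a few genes changed strongly while most listed genes were not called. Pck2, the mitochondrial PEP carboxykinase, fell from 46.8 to 134 CPM in Ctrl (median 98.2) to 0 to 2.50 in KO embryos (median 1.27), or 529 UMIs against 6 (-6.36 ± 0.51, adjusted p = 5.99e-19). Pck2 overlaps the gene Gm10876. Glud1, glutamate dehydrogenase, fell from 131 to 304 CPM to 46.7 to 93.6 (-1.68 ± 0.19, adjusted p = 3.5e-12) and Idh1, cytosolic isocitrate dehydrogenase, from 248 to 490 to 61.2 to 166 (-1.59 ± 0.18, adjusted p = 6.12e-12). Of 23 tested genes of the TCA cycle and its feeding reactions 3 were called lower, those just named, and 1 higher, with a median of -0.01. Of 25 glycolysis genes 4 were called higher and 2 lower. The glucose transporter Slc2a3 rose from a median of 269 to 1230 CPM without overlap (2.12 ± 0.33, adjusted p = 9.72e-08), and Tpi1 was called higher at 1.05. Pfkp, a phosphofructokinase, fell by 3.88 (29.0 to 55.3 CPM in Ctrl, 0 to 10.4 in KO) and Ldha by 3.61 ± 0.97, where both groups held embryos at 0 (68 and 5 UMIs). Gapdh and Pkm were not called, at -0.36 and 0.08. Glutathione genes were split, 3 higher and 3 lower of 15, with Gss and Gpx4 up by 1.51 and 1.13 and the transferases Gstm1 and Mgst3 at -3.90 and -1.10. Of 21 cholesterol genes 3 were called higher, Insig1, Dhcr7 and Ebp at 1.57, 1.54 and 1.16, and the regulator Srebf2 lower at -1.12.

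The integrated stress response is the ATF4 programme that answers amino acid shortage, and many of its listed genes fell. Of 18 tested 9 were called lower and 1, Phgdh, higher, with a median of -1.23. Asns, asparagine synthetase, ran from 254 to 630 CPM in Ctrl (median 437) and from 14.8 to 106 in KO embryos (median 37.8), without overlap (-3.22 ± 0.43, adjusted p = 1.95e-09). Nupr1 ran from 65.9 to 212 CPM in Ctrl and from 0 to 5.05 in KO (-5.75 ± 0.65). Trib3, Cebpb and the amino acid transporters Slc7a1 and Slc7a5 fell by 2.34, 1.73, 2.24 and 1.97. Atf4 mRNA itself was not called (-0.20 ± 0.14), nor was Ddit3 (0.04 ± 0.37).

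Some listed targets of p53 rose while Trp53, its own gene, fell. Trp53 had 34.0 to 129 CPM in Ctrl (median 93.6) and 1.57 to 22.7 in KO embryos (median 13), without overlap (-2.66 ± 0.32, adjusted p = 5.29e-11). Of the 19 tested genes of the p53 list, which holds Trp53 beside known targets, 7 were called higher and 11 were not called. Trp53 was the 1 called lower. Ccng1 rose from 94.1 to 248 CPM (median 157) to 247 to 717 (median 418), with 1.49 ± 0.31 (adjusted p = 6.15e-05). Btg2, an antiproliferative gene, rose by 2.41 ± 0.39, the apoptosis effector Pmaip1 by 2.50 ± 0.41, the desmosomal Perp by 2.15 ± 0.34 and the cell cycle inhibitor Cdkn1a by 1.33 ± 0.43 (adjusted p = 0.0123). Perp was not called against MWT (0.85). Mdm2, which p53 also induces, was not called (0.31 ± 0.21), nor were Gadd45a and Rrm2b (-0.94 and -0.93). Among 16 BCL2 family and caspase genes 3 were called higher, Bok at 1.27 among them, and 2 lower, Bid at -2.34 and Bmf at -1.74. Of 28 cell cycle genes 3 were called in each direction, Cdk1 among the lower at -1.06.

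**Figure D3:**
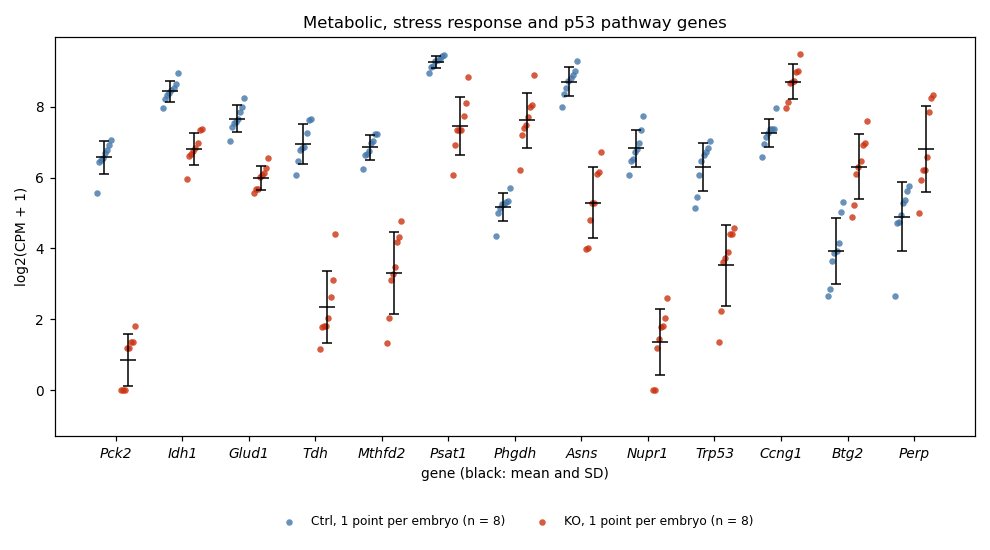
Levels of metabolic, stress response and p53 pathway genes in each late ICM of the Oct4 line, as log2(CPM + 1), with 1 point per embryo and the mean and SD in black. Every KO embryo lies below every Ctrl embryo for Pck2, Idh1, Glud1, Tdh, Mthfd2, Psat1, Asns, Nupr1 and Trp53 and above for Phgdh, while Ccng1, Btg2 and Perp are higher with overlap.

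Chromatin regulators were lower where they were called, 6 of 26 tested with 0 higher and a median of -0.46. Sap30, a subunit of the Sin3 corepressor, fell from a median of 65.7 to 3.73 CPM (-4.26 ± 0.35, adjusted p = 2e-18), the histone demethylase Kdm3a from 137 to 23.2 (-2.34 ± 0.23, adjusted p = 2.4e-14) and the deacetylase Hdac1 from 341 to 153 (-1.22 ± 0.13, adjusted p = 4.49e-13), each without overlap. Uhrf1, which recruits maintenance methylation, and Ezh2, the Polycomb methyltransferase, fell by 1.64 and 1.17. Of 19 imprinted genes 3 were called higher and 4 lower. The noncoding Meg3 ran from 25.5 to 125 CPM in Ctrl and from 1.23 to 61.0 in KO (-2.33 ± 0.54, adjusted p = 0.0003, and -3.08 without KO 1-5). Plagl1, Sgce and Usp29 were near 0 in Ctrl embryos and called higher, Plagl1 at 3.06 ± 0.76. Sgce summed to 2 UMIs in Ctrl and 26 in KO, a level of 1235% of Ctrl with an exact Poisson interval of 309% to 10737%, and Usp29 to 0 and 21, at least 6.65-fold higher against a floor of 3 UMIs over the Ctrl group.

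Few housekeeping genes were called. Of 79 tested ribosomal protein genes and 38 proteasome genes, edgeR called 0, with medians of 0.05 and 0.15. At an unadjusted p under 0.05, 19 ribosomal and 15 proteasome genes passed, and DESeq2 called 0 in either list. Of 82 nuclear genes of oxidative phosphorylation 1 was called lower (Uqcrb, -1.08 ± 0.15) and 1 higher (Ndufb1-ps, 1.01 ± 0.16). Of 33 mitochondrially encoded genes 2 were called higher and 1 lower, mt-Nd4l at -2.06. The call of the tRNA mt-Ti rests on KO 1-7 with 640 CPM and was -0.01 without it.

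**Figure D4:**
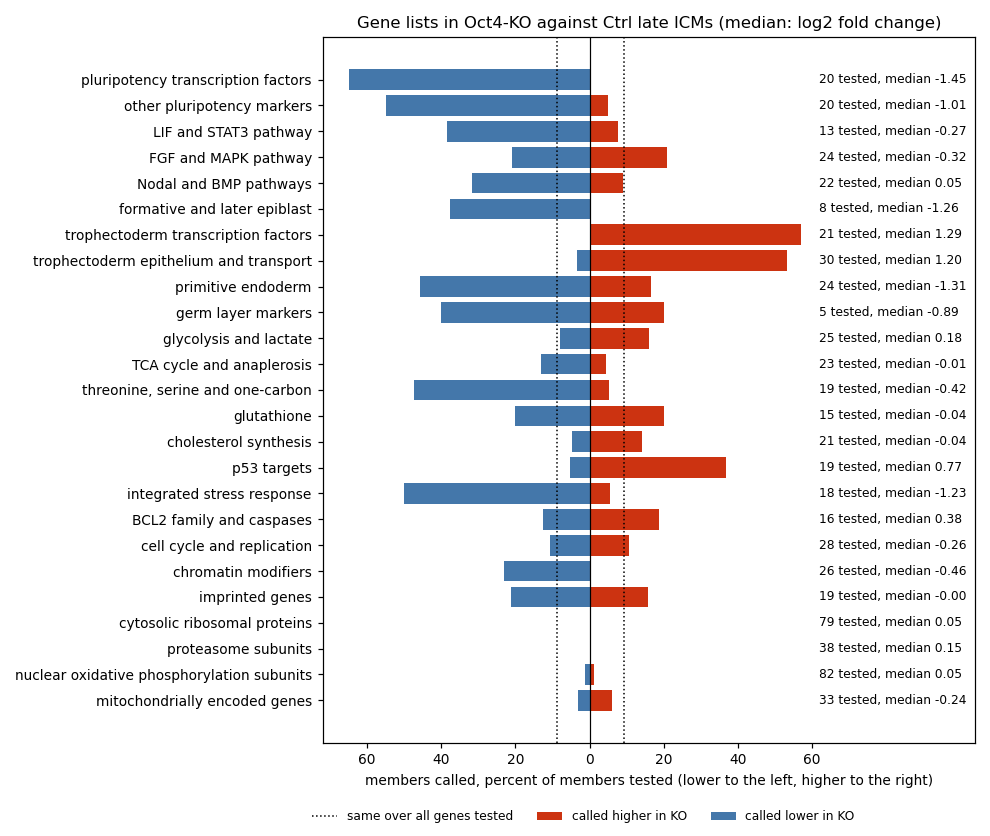
Members of each gene list called higher (to the right) or lower (to the left) in KO against Ctrl late ICMs, as percent of the members tested, with the number tested and the median log2 fold change written beside. Dotted lines give the same shares over all genes tested, 9.25% and 8.85%. Pluripotency, stress response and serine lists reach to the left, TE and p53 lists to the right.

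The steepest losses over the whole table, among genes that averaged 20 CPM or more in their higher group and whose groups were separate, included surface and secreted proteins. Mal, a membrane traffic protein, Pcdh19, a protocadherin, Kit, the stem cell factor receptor, and Sirpa, a CD47 receptor, had 152, 133, 133 and 109 UMIs in Ctrl and none in KO embryos, which made them at least 53.3-, 46.7-, 46.7- and 38.2-fold lower against the same floor over the KO group. Kit ran from 5.49 to 53.9 CPM and Pcdh19 from 11.2 to 41.2 CPM in Ctrl embryos. Sfrp1, a secreted Wnt antagonist, kept 1 of 151 UMIs, a level of 0.629% with an exact Poisson interval of 0.0158% to 3.56%. Cyp2b23 kept 0.625% (0.0157% to 3.54%) and the GATA-type repressor Trps1 0.826% (0.0207% to 4.70%), each from 1 UMI. Fam25c kept 0.679% (0.0818% to 2.47%), and the T-box factor Tbx15 fell from 11.1 to 81.6 CPM to 0 to 2.52 (-5.88 ± 0.56, adjusted p = 5.85e-15).

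The steepest gains, under the same limits, were in genes with low Ctrl levels, at medians of 0 to 14.9 CPM for those named here. Alppl2, an alkaline phosphatase of early embryos, ran from 1.43 to 25.6 CPM in Ctrl (median 14.9) and from 182 to 983 in KO embryos (median 526), that is 66 against 3181 UMIs (5.49 ± 0.57, adjusted p = 1.11e-13). The membrane carbonic anhydrase Car4 rose from 5 to 284 UMIs (5.49 ± 0.67), the hexokinase relative Hkdc1 from 7 to 209 (4.71 ± 0.74) and the GABA transporter Slc6a13 from 3 to 140, a level of 4434% of Ctrl with an exact Poisson interval of 1486% to 21758%. Tmem86a rose from 1.42 to 26.1 CPM to 64.9 to 232 (4.17 ± 0.35, adjusted p = 3.87e-18). Mycbpap, Ldoc1, Cgref1, the chloride channel protein Clic3 and the phosphatase Cdc25b, which drives entry into mitosis, rose by 4.83, 4.55, 4.23, 4.13 and 4.05.

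Among the most abundant changed mRNAs, Fabp3, a fatty acid binding protein, rose from 161 to 823 CPM (median 322) to 2591 to 4412 (median 3355), with 3.12 ± 0.37 (adjusted p = 2.58e-11). Gm2a and Psap, both activators of lysosomal glycolipid breakdown, rose by 3.28 ± 0.25 (medians 239 and 2184 CPM) and 1.66 ± 0.18 (775 and 2493 CPM), again without overlap. Sorbitol dehydrogenase (Sord) rose by 2.65 and the creatine transporter Slc6a8 by 1.61. The metallothionein Mt1 was the most abundant, at 786 to 5784 CPM in Ctrl and 3181 to 9510 in KO embryos (1.12 ± 0.31, adjusted p = 0.00287). Khdc3, of the oocyte-derived subcortical complex, fell from 1772 to 3420 CPM to 533 to 1904 (-1.18 ± 0.16, adjusted p = 2.3e-09), and the maternal-effect gene Dppa3 from medians of 1620 to 932 (-1.01 ± 0.17). Klf5, a factor active in both TE and ICM, rose from medians of 716 to 1544 CPM (1.00 ± 0.16), at the fold minimum.

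MWT embryos gave another control with Oct4 supplied by the mother. Ctrl and MWT late ICMs differed for 111 of 13923 genes (0.797%). KO embryos differed from MWT for 1353 genes higher (9.72%) and 1438 lower (10.3%). The 2 comparisons share the KO embryos, so their values are set side by side. For Sox2, Nanog, Esrrb, Klf4, Fgf4 and Tdgf1 the log2 fold change against MWT was -2.16, -1.40, -3.82, -2.68, -5.10 and -5.81, each called, beside the -1.62, -1.19, -3.61, -2.60, -4.35 and -5.71 against Ctrl. For Gata3, Cdx2, Krt18 and Alppl2 it was 3.27, 3.73, 2.34 and 3.77, beside 2.85, 1.92, 2.60 and 5.49. Of the pluripotency factors 12 were called lower and 0 higher against MWT, and of the TE factors 11 higher and 0 lower.

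The early ICM shows where the late stage stands apart. In the 16 early ICMs of the line 670 genes (4.77%) were called higher and 859 (6.11%) lower in KO embryos. The KO effect itself differed between stages for 437 genes by the interaction test, 291 with a more positive (2.07%) and 146 with a more negative (1.04%) effect in late ICMs. Sox2 and Nanog were not called in KO early ICMs (0.31 ± 0.27 and 0.30 ± 0.23), and their effects differed by -1.93 ± 0.38 (adjusted p = 0.000633) and -1.50 ± 0.33 (adjusted p = 0.00261). Esrrb, Klf2, Klf4, Fgf4 and Tdh were already lower in early ICMs, at -2.20, -1.45, -1.26, -2.10 and -2.0, and the effects were more negative in late ICMs, with interactions of -1.40, -1.17, -1.34, -2.25 and -2.59 (adjusted p = 0.0192, 0.0332, 0.0105, 0.00811 and 0.00295). Cdx2 was not called in early ICMs (0.13 ± 0.38) and had an interaction of 1.80 ± 0.55 (adjusted p = 0.04). Gata6 was not called there either (-0.11 ± 0.25, interaction 1.36 ± 0.35, adjusted p = 0.0116).

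Of the 18 stress response genes tested the interaction with stage passed for 5 with a more negative and 1 with a more positive effect in late ICMs, and of the 19 genes of the p53 list for 6 with a more positive effect, beside 1.04% and 2.07% of all genes. Psat1, Asns and Slc7a5 stood at -0.16, -0.98 and -0.19 in early ICMs, none of them called, with interactions of -1.45, -2.23 and -1.78 (adjusted p = 0.000237, 0.0135 and 0.00713). Ccng1, Btg2 and Perp stood at -0.04, -0.12 and 0.21, with interactions of 1.53, 2.54 and 1.94 (adjusted p = 0.0214, 0.00147 and 0.00466). Ezr and Uhrf1 were lower at both stages and less so in late ICMs, with interactions of 2.22 and 1.46. Fn1 (-5.34), Fabp3 (3.06), Glud1 (-1.78) and Idh1 (-1.45) were already changed in early ICMs, and their interactions of -0.17 ± 0.55, 0.06 ± 0.48, 0.10 ± 0.26 and -0.15 ± 0.25 did not pass. Among genes that averaged 20 CPM or more in 1 of the 4 groups and had no overlap of KO and Ctrl embryos at 1 stage or the other, the largest negative interactions were in Ankrd45 (-4.95), the matrix protein Fbln5 (-4.28), Foxd3 (-3.60), the RNA-binding protein gene Rbmxl2 (-3.43), Syt9 (-3.36) and Mitf (-3.23). The largest positive were in Mab21l3 (3.74), Ldoc1 (3.72), Cgref1 (3.63), Alppl2 (3.45), the acyl-CoA synthetase Acsbg1 (3.10) and the mitotic kinase Nek6 (3.01). Foxd3 averaged 13.4 CPM in Ctrl and 5.12 in KO early ICMs. Elf5, a factor of trophoblast stem cells that did not meet these limits (19.8 CPM in KO late ICMs, overlapping groups), was called in opposite directions, -3.41 ± 1.13 early and 2.29 ± 0.73 late, with an interaction of 5.70 ± 1.34 (adjusted p = 0.00511), and its late call was lost without KO 1-2 (1.68) or KO 2-2 (1.61).

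**Figure D5:**
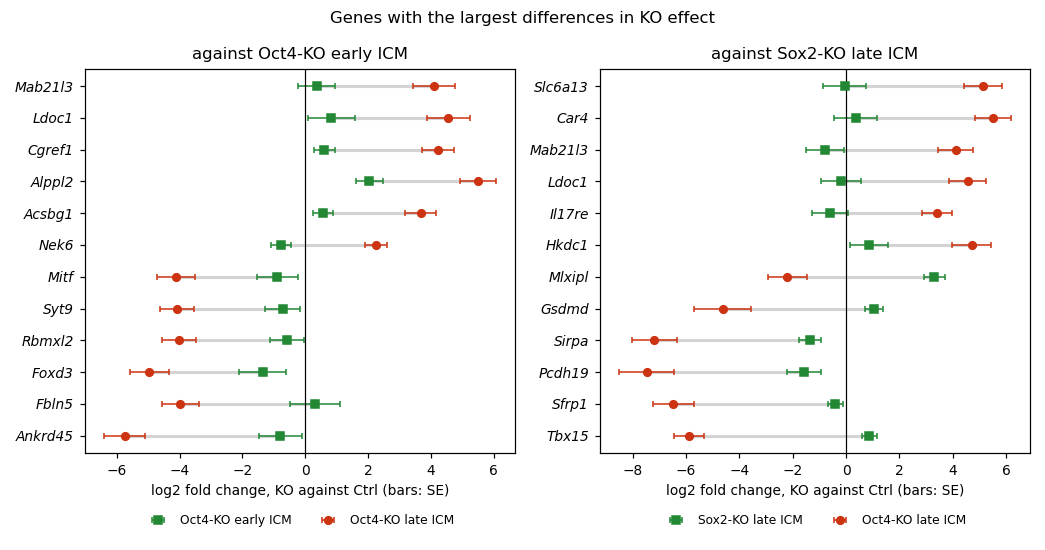
Log2 fold change of KO against Ctrl with its SE for the 6 genes of each direction with the largest difference in KO effect, among genes with 20 CPM or more in 1 of the 4 groups and no overlap of KO and Ctrl embryos in 1 of the 2 comparisons, late ICMs as circles, beside early ICMs of the same line (left) and Sox2-KO late ICMs (right) as squares. Fbln5 (left) and Tbx15 (right) lie above 0 in the group compared and far below 0 in Oct4-KO late ICMs, and Mab21l3 and Ldoc1 have differences past the thresholds in both panels.

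Loss of Sox2 at the same stage gave another comparison, with 469 genes (3.34%) called higher and 508 (3.61%) lower in Sox2-KO against Ctrl late ICMs. Its embryos are separate from those of the Oct4 line. The KO effect differed between lines for 886 genes, 395 (2.81%) with a more positive and 491 (3.49%) with a more negative effect of Oct4 loss. Fn1, Hnf4a, Idh1, Glud1 and Esrrb were lower without Oct4 and stood at -0.29, 0.39, 0.48, 0.15 and -0.53 without Sox2, with differences of -5.22, -4.36, -2.07, -1.83 and -3.08 that all passed. Nanog, at 0.07 ± 0.23 without Sox2, differed by -1.27 ± 0.33 (adjusted p = 0.00618). Fabp3, Krt18, Phgdh and Tfap2a rose without Oct4 and stood at 0.10, -0.40, -0.19 and 0.27 without Sox2, with differences of 3.02, 3.00, 2.79 and 2.31. Other effects were not shown to differ. Klf2 fell by 2.47 without Sox2 (difference -0.14 ± 0.35), Fgf4 by 3.50 (-0.84 ± 0.54), and Cdx2 rose by 1.85 (0.07 ± 0.55). Mlxipl, a glucose-responsive factor, fell without Oct4 (-2.21 ± 0.73) and rose without Sox2 (3.31 ± 0.39), and Gsdmd had 18 UMIs in Ctrl and none in Oct4-KO embryos, at least 6.32-fold lower, but rose by 1.05 without Sox2. The differences were -5.52 and -5.68. The other large ones, under the same limits on level and overlap, were in Tbx15 (-6.74), Sfrp1 (-6.08), Pcdh19 (-5.88), Sirpa (-5.82), Slc6a13 (5.19), Car4 (5.14), Mab21l3 (4.88), Ldoc1 (4.74), Il17re (4.00) and Hkdc1 (3.85). For Pcdh19, Sirpa and Gsdmd the fitted values depend on the prior count, since the KO group had no UMI.

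Genes that change from the early to the late ICM were read from the Ctrl embryos of the Sox2 line, which share no embryo with the Oct4 line. These Ctrl embryos lacked the maternal Sox2 gene and had been given the MEK inhibitor, so the change may differ from that of untreated embryos. There, 272 genes (1.94%) were called higher and 135 (0.961%) lower in late than in early ICMs. Of the 272, 109 (40.1%) were called lower and 42 (15.4%) higher in Oct4-KO late ICMs, with a median log2 fold change of -0.64, against -0.01 over all genes tested. Of the 135, 45 (33.3%) were called higher and 9 (6.67%) lower, with a median of 0.71. With at least 10 CPM in Sox2 Ctrl embryos the first share was 51.2% (83 of 162) and the median of those genes -1.34.

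Single embryos decided some of the calls above. Near the fold minimum, the call was lost for Dppa3 without Ctrl 1-2, 1-3 or 1-6 or KO 1-2, 2-2 or 2-5 (-1.15 to -0.88 over the 16 fits that leave out 1 embryo each), and for Cdk1 without Ctrl 1-4 or 1-9 or KO 2-2, 2-5 or 2-7 (-1.23 to -0.94). It was lost for Mycn without Ctrl 1-4, 1-6 or 2-1 or KO 1-2, 2-2, 2-5 or 2-7 (0.81 to 1.23), and for Tpi1 without Ctrl 1-2, 1-4, 1-6 or 2-1 or KO 1-2 or 1-7 (0.73 to 1.30). For Klf5 it was lost without any of 11 embryos (0.89 to 1.06), the exceptions being Ctrl 1-6 and 2-1 and KO 1-5, 1-7 and 2-7. For Ndufb1-ps it was lost without Ctrl 1-4, 2-1, 2-4 or 2-9 or KO 1-2, 1-5, 1-7 or 1-8 (0.87 to 1.08), and for Srebf2 without Ctrl 1-2 or KO 1-7, 1-8 or 2-7 (-1.58 to -0.95). Smad7 lost it without Ctrl 1-3 or KO 1-5 or 1-8 (0.91 to 1.18), Mgst3 without Ctrl 1-9 or 2-9 (-1.29 to -0.79), Ebp without KO 1-5 or 1-8 (0.81 to 1.32), Mt1 without Ctrl 2-4 or 2-9 (0.95 to 1.25) and Uqcrb without Ctrl 1-6 (-0.96). In sparse genes 1 embryo moved the size without ending the call. Without KO 1-2, Gdf3, Lifr, Pfkp and Gstm1 stood at -7.33, -3.71, -4.52 and -4.50. Without KO 2-2, Il6st and Tbx15 stood at -4.80 and -6.50, and Prdm14 without KO 2-7 at -4.48. Tdh without KO 1-8 stood at -5.24, Fbln5 without KO 2-6 at -4.84 and mt-Nd4l without KO 1-7 at -3.35. Without Ctrl 2-1, Car4 stood at 6.45, and without Ctrl 1-9, Hkdc1 and Tmem86a stood at 5.58 and 4.91. Cgref1 without Ctrl 1-4 stood at 4.92, Mab21l3 without Ctrl 2-4 at 4.82 and Acsbg1 without Ctrl 1-3 at 4.36. The fitted value of Slc6a13 moved from 5.13 to 6.08 without Ctrl 2-9. The single KO UMI of Pou5f1, Cyp2b23, Sfrp1 and Trps1 came from KO 2-2, 2-2, 2-5 and 1-2, without which no UMI remained in the group. Embryo numbers begin with 1 or 2, which gives 2 label sets, with 9 embryos in the first and 7 in the second. Of the second set, Ctrl 2-4 and 2-9 held 112 and 125 Y-linked UMIs and Ctrl 2-1 held 1. KO 2-2, 2-5, 2-6 and 2-7 held 0, so sex composition ran largely with genotype in that set. In the second set alone the calls of Dppa3, Lif, Smad1, Smad5, Smad7, Apoa1, Gata4, Elf5, Tpi1, Ebp, Srebf2, Bok, Bid, Bmf, Cdkn1a, Socs3, Sgce, mt-Ti, mt-Nd4l, Gsdmd and Mlxipl were lost. In the first set alone those of Mt1, Dppa3, Klf5, Mycn, Elf5, Tpi1, Mgst3, Srebf2, Cdk1, Meg3, Plagl1 and mt-Nd4l were lost. Calls were gained for Tead4, as higher, in the first set alone and without KO 2-2, and for Aqp3, as lower, in the second set alone. With the label set as a block the calls of Dppa3, Klf5, Mycn and Srebf2 were lost. With sex as a covariate those of Klf5, Mycn, Smad7, Ebp, Srebf2, Cdk1, mt-Ti and mt-Nd4l were lost, and DESeq2 did not call Klf5, Mycn and Elf5. Limma on the deposited log2 values did not call Klf5, Mycn, Smad7, Tpi1, Mgst3, Ebp, Srebf2, Bok, Bmf, Sgce and Usp29. Nor did it call Uqcrb, Ndufb1-ps, mt-Ti, mt-Nd4l, Gsdmd, Mlxipl, Elf5, Gata4, Smad1 and Smad5. Library totals alone lost Klf5, Mycn, Smad7, Tpi1 and Ndufb1-ps. Thinning libraries to the lowest total lost Klf5, Smad7, Srebf2, Ndufb1-ps and mt-Ti. Among the 3 Ctrl and 6 KO embryos with fewer than 10 Y-linked UMIs, an alternative chosen after seeing the data, the calls of Egr1 (-1.03), Insig1 (0.83), Mt1, Dppa3, Klf5, Lif, Tpi1, Mgst3, Ebp, Srebf2, Bmf, Ndufb1-ps, mt-Nd4l, Mlxipl, Elf5, Smad1 and Smad5 were lost, and mt-Ti changed sign to -0.29.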

How the data were processed

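Single embryos were sequenced with unique molecular identifiers on a library enriched for transcript 3′ ends, and the authors deposited 1 table of UMI counts per gene (29022 genes) and 1 of rlog values, a log2 scale from DESeq2 (15747 genes). Per the labels and the study's methods, reads were handled with UMI-tools and cutadapt, aligned to mm10 with TopHat2, assigned with featureCounts and corrected with TRUmiCount. The strand setting is not given in the sources used here. From the deposited counts, genes detected in a share of at least 0.5 of the embryos of a stage were fitted with edgeR 4.0.16 (R 4.3.3, TMM, quasi-likelihood) on 96 embryos of 12 genotype and stage groups, with another fit that adds the 27 MWT embryos. P-values were adjusted by Benjamini-Hochberg over all genes, and a call needed both an adjusted p below 0.05 and a log2 fold change of 1 or more in either direction. SE is the fold change over the square root of F. Intervals cover counting error only. DESeq2 1.42.0, limma 3.58.1 on the deposited log2 values and the other alternatives are given at the end, and the scripts were tested on simulated data. The 56 pairs of embryos within a group all differed by more than sampling noise. Sex was read from 4 single-copy Y-linked genes because the sum of Y-linked counts was set by the multicopy Gm47283, an alternative to the plan. Genes were named by rule (the 12 steepest called genes of each direction with at least 20 CPM and separate groups, passing over predicted genes, Riken clones and pseudogenes, the 10 most abundant called genes, up to 5 called members of each list with those against its majority, and the 6 largest interactions of each direction), and all others were chosen after their values were seen. A few results are not reported here. The members of the comparison and the 26 gene lists were chosen with earlier results of these data known.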

Additional observations from a re-analysis of the deposited data

Results flagged for a closer look

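In 307 groups of 8 embryos (the genes named by their levels, in Ctrl and in KO), the highest or lowest embryo stood far from the rest 22 times by Dixon's test at the 95% level, and chance flags about 1 in 20 groups. Among Ctrl embryos, 1-4 was lowest for Mal at 3.21 CPM and for Tcf7l1 at 32.1 CPM. Ctrl 1-2 was lowest for Pck2 at 46.8 CPM and for Tbx3 at 101 CPM, and Ctrl 2-9 for Tbx15 at 11.1 CPM and for Tfcp2l1 at 181 CPM. Ctrl 1-3 was highest for Utf1 at 539 CPM and stood apart for Sord at 63.0 CPM. Ctrl 2-4 stood apart for Eomes at 88.8 CPM and for Bid at 1.71 CPM, Ctrl 1-6 for Dab2 at 39.5 CPM and Ctrl 2-1 for Perp at 5.38 CPM. Among KO embryos, 2-7 was lowest for Krt18 at 310 CPM, for Krt8 at 349 CPM and for Gm2a at 1021 CPM. KO 1-2 was lowest for Dppa3 at 194 CPM, for Bok at 8.65 CPM and for Dusp4 at 0 CPM. KO 1-7 stood at 640 CPM for mt-Ti and at 0 CPM for Plagl1, KO 1-8 at 25.1 CPM for Pkp2 and KO 2-5 at 0 CPM for Cebpb.

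The KO effect differed between late and early ICMs for 291 genes with a more positive and 146 with a more negative effect, each by the interaction test. Among genes with 20 CPM or more in 1 of the 4 groups and no overlap of KO and Ctrl embryos in 1 of the 2 comparisons, the largest were in Ankrd45 (-4.95), Fbln5 (-4.28), Foxd3 (-3.60), Rbmxl2 (-3.43), Syt9 (-3.36), Mitf (-3.23), Mab21l3 (3.74), Ldoc1 (3.72), Cgref1 (3.63), Alppl2 (3.45), Acsbg1 (3.10) and Nek6 (3.01). Between Oct4 and Sox2 loss it differed for 395 and 491 genes, with the largest under the same limits in Tbx15 (-6.74), Sfrp1 (-6.08), Pcdh19 (-5.88), Sirpa (-5.82), Gsdmd (-5.68), Mlxipl (-5.52), Slc6a13 (5.19), Car4 (5.14), Mab21l3 (4.88), Ldoc1 (4.74), Il17re (4.00) and Hkdc1 (3.85).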

How the results depend on the processing

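No paired analysis was possible because Ctrl and KO late ICMs share only 1 embryo number, and the labels do not tie numbers to litters. The 2544 calls became 1435 in the second label set alone, 1197 with limma on the deposited rlog values, 4450 with no fold minimum and, in an alternative chosen after seeing the data, 1448 among embryos with fewer than 10 Y-linked UMIs (3 Ctrl and 6 KO). Fewer embryos enter the first and the last, the minimum is dropped in the third, and the cause of the second was not tested. In the first, sex composition also ran largely with genotype. The other settings gave 1702 (at least 10 CPM) to 2593 (no filter), with 2393 by DESeq2, 2336 with the label set as a block, 2087 with the sex covariate and 2443 without chromosomes X and Y (also added). Leaving out single embryos gave 2385 (without KO 1-8) to 2542. The late against early count of 437 ranged from 296 (those 32 embryos only) to 492 (DESeq2), and the difference for Ldoc1 then did not pass in edgeR's test of those 32 embryos (3.67). The Oct4 against Sox2 count of 886 ranged from 693 to 931, and the MWT count of 2791 was 2564 in those 16 embryos alone. Among genes higher in late than in early Sox2 Ctrl ICMs, the share called lower rose from 40.1% to 51.2% with at least 10 CPM, where fewer genes enter. mt-Ti reversed to -0.29 among embryos with few Y-linked UMIs and ranged from -0.0069 (without KO 1-7) to 1.30 (without KO 2-7) when single embryos were left out. Over all alternatives other than leaving out an embryo, the 176 genes followed kept their side of the threshold in 2516 cases, lost the call in 103 and gained it in 8. For genes called in neither fit, a change of sign within the SE was counted as kept. Counts of list members called moved past a fixed margin 127 times and stayed within it 653 times. When single embryos were left out these numbers were 71 and 761. Depth limits genes near 1 CPM, where KO levels of 0 only bound the loss.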
